A study of Homo sapiens with 12 samples.

Results

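Human mitochondrial DNA encodes a small set of genes of its own, and their RNAs were measured here in osteosarcoma cells treated with 2 kinase inhibitors. The genes were chosen by name, as every symbol in the expression tables that begins with MT-, whatever its values. That rule found 37 of the 56140 gene symbols, made up of 13 mRNAs, 2 ribosomal RNAs and 22 tRNAs. All 37 lie on chromosome M in the GENCODE 29 annotation of GRCh38, 28 on the plus strand and 9 on the minus strand, the latter being MT-ND6 and 8 tRNAs. All 37 also passed the filter for testing, at least 1 FPKM (fragments scaled to transcript length and to all mapped fragments of the library) in at least 3 of the 12 libraries, as did 11944 genes in all.

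The cells were 143B, an established human osteosarcoma line labelled as wild-type, so every group is a culture of 1 cell line grown in the same serum-containing medium. Cultures received DMSO (the solvent control), 1.0 µM ceritinib (an inhibitor of the kinase ALK and of other kinases), 1.0 µM crenolanib (an inhibitor of PDGF receptors and FLT3) or both drugs at those doses, each for 48 hours. Each group had 3 biological replicates, and strand-specific libraries were made from total RNA. Neither depletion of ribosomal RNA nor selection of polyadenylated RNA is stated in the labels.

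The extraction text in the labels speaks of a thymic sample, whereas the other labels name 143B. Of 7 T cell and thymocyte markers, 0 had a median of 1 FPKM or more, and the highest median was 0.280 FPKM, for CD3D. Of 10 mesenchymal or osteosarcoma markers 5 did, among them VIM (median 447 FPKM) and SPARC (60.5 FPKM), while COL1A2, a chain of type I collagen, had a median of 0 and the bone phosphatase ALPL 0.0313 FPKM. Of 5 epithelial markers 3 had a median of at least 1 FPKM, the keratins KRT18 (293 FPKM) and KRT8 (72.3 FPKM) and EPCAM (1.17 FPKM). KRT19 (0.0563 FPKM) and CDH1 (0 FPKM) did not. Of 3 macrophage markers 1 did, the lysosomal gene CD68 (27.2 FPKM). CD14, AIF1 and all 3 endothelial markers had medians of at most 0.0192 FPKM. The 3 combination libraries stood apart from the other 9. They had 10284 to 10358 genes at 1 FPKM or more, against 11220 to 11464 elsewhere, and across 10552 nuclear protein-coding genes their log2 difference from the DMSO mean was correlated with GC content (Spearman rho 0.663 to 0.696, against -0.153 to 0.227 in the other 9) and with transcript length (rho -0.446 to -0.437, against -0.0952 to 0.169). These correlations run across genes of single libraries and are given as a description. Median GC content was 44.3% for the 13 mitochondrial mRNAs and 48.4% for the nuclear protein-coding genes tested.

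Mitochondrial DNA is transcribed from both strands as long precursors that hold many genes in a row. The tRNAs lie between the rRNAs and mRNAs like punctuation, and nucleases cut at the tRNA ends to release the RNAs. The rRNAs form the core of the mitochondrial ribosome, the tRNAs decode its mRNAs, and every mRNA encodes a hydrophobic subunit of the respiratory chain or of ATP synthase, whose other subunits come from the nucleus. Because a precursor contains several genes, the level of each mature RNA depends on how it is cut, modified and degraded as well as on transcription. FPKM is a relative measure, so less mitochondrial RNA per cell and more RNA of other kinds cannot be told apart, nor can fewer cells and less RNA per cell.

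The sequences of 5 tRNA genes that recur in the results are shown for reference. They are written 5′ to 3′ on the coding strand with the anticodon in capitals, from GENCODE 29 transcripts. MT-TF (phenylalanine) lies at chrM:577-647, MT-TV (valine) at chrM:1602-1670 and MT-TL1 (leucine) at chrM:3230-3304, all on the plus strand. MT-TC (cysteine) at chrM:5761-5826 and MT-TY (tyrosine) at chrM:5826-5891 lie on the minus strand and share 1 base.
MT-TF: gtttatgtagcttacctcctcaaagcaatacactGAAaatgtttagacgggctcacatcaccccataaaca
MT-TV: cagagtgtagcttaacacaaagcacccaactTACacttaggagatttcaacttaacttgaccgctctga
MT-TL1: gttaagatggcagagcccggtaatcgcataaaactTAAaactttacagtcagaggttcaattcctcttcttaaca
MT-TC: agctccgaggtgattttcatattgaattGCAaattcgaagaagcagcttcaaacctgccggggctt
MT-TY: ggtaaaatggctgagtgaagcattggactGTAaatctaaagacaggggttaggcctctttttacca

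Neighbouring genes can also overlap on the same strand. The coding sequences of MT-ATP8 and MT-ATP6 share 46 bases at chrM:8527-8572, and those of MT-ND4L and MT-ND4 share 7 bases at chrM:10760-10766. The shared bases are in capitals below, with 10 bases on each side. Fragments from the shared stretch cannot be assigned to 1 of the 2 genes, and each of these pairs is also carried on a single mature mRNA in cells.
MT-ATP8 / MT-ATP6: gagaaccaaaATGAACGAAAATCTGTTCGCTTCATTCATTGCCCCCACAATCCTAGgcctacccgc
MT-ND4L / MT-ND4: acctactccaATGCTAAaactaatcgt

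The 37 genes together took 22.9%, 24.2% and 25.2% of the summed FPKM in the DMSO libraries, and between 28.8% and 29.8% with ceritinib, 25.6% and 26.3% with crenolanib, and 19.1% and 21.7% with both drugs. The ceritinib and crenolanib libraries lay above every DMSO library and the combination libraries below. The classes did not move in step. The mRNAs made up most of the total, with 22.3% ± 1.11 in DMSO and 17.7% ± 1.22 in the combination (SD, n = 3 here and below). The rRNAs had a higher share in the combination, 1.56% ± 0.0836, than in DMSO, 1.05% ± 0.0527, and this was close to the 1.59% ± 0.0722 seen with ceritinib. The tRNAs took 0.782% ± 0.0376 in DMSO, 1.32% ± 0.0353 with ceritinib, 1.12% ± 0.0239 with crenolanib and 0.877% ± 0.0373 in the combination. These shares are descriptions without a test. The summed FPKM of all other genes was 187389 ± 1062 in DMSO and 219721 ± 1471 in the combination, and that difference moves the share too.

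**Figure D1:**
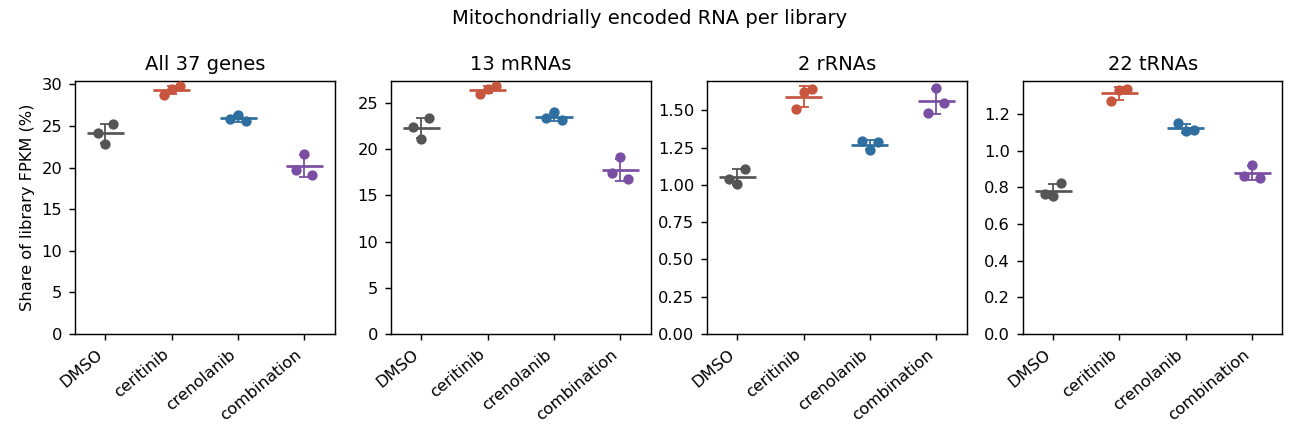
Share of each library's summed FPKM (percent, y axis from 0) taken by all 37 mitochondrial genes and by each class, in the 4 groups (x axis); points are libraries, horizontal lines group means and error bars SD over 3 libraries. The mRNA share was lowest in the combination (17.7%), whereas the rRNA share there (1.56%) lay near that of ceritinib (1.59%).

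By subunit class, complex I mRNAs took 6.44% of the summed FPKM in DMSO, 8.59% with ceritinib, 7.78% with crenolanib and 5.56% in the combination. Complex IV mRNAs took 8.97%, 9.76%, 8.45% and 7.08% in the same order, and complex V mRNAs 6.39%, 7.39%, 6.63% and 4.60%. The complex III mRNA took 0.462%, 0.693%, 0.644% and 0.495%. Mitochondrial mRNAs were among the most abundant RNAs in all libraries, with 9 or 10 of the 10 highest FPKM values in each belonging to mitochondrial genes. The highest nuclear gene was EEF1A1 in the DMSO and single-drug libraries, a translation elongation factor, at 1891 to 2479 FPKM.

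In DMSO the level per length ran from MT-ATP6 at 8364 ± 345 FPKM down to MT-TR at 0.920 ± 0.226 FPKM. MT-CO2 (7780 ± 634 FPKM), MT-ATP8 (7416 ± 423 FPKM), MT-CO1 (7372 ± 300 FPKM) and MT-CO3 (7010 ± 627 FPKM) followed MT-ATP6 and did not differ from one another beyond their spread. MT-ND4, MT-ND4L and MT-ND2 came next, at 4525 ± 288, 3903 ± 347 and 3302 ± 94.8 FPKM. MT-ND5 (568 ± 56.3 FPKM) and MT-ND6 (482 ± 72.6 FPKM) were the lowest mRNAs and overlapped in their spread.

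Nearly the whole set was higher with ceritinib. Against DMSO, 33 of the 37 genes were higher and 0 were lower at an adjusted p below 0.05, where 20.3% of all tested genes were called higher and 16.3% lower. The log2 changes of the 37 genes ran from 0.11 to 1.32 with a median of 0.65, against a median of 0.013 over all tested genes (changes are on the log2(FPKM + 1) scale throughout). The 4 genes not called were MT-CO1, MT-CO2, MT-TS1 and MT-TR. The ceritinib and DMSO libraries did not overlap for 34 of the 37 genes, a pattern found in the higher direction for 28.9% of all tested genes. Of the 33 calls, 25 held under each of 5 other scalings of the data. Quantile normalization, which forces the same distribution on all libraries, ended the calls of MT-RNR2, MT-ND3, MT-ND4, MT-ND4L, MT-ATP6 and MT-ATP8 (MT-ND4L at -0.13, adjusted p = 0.201), and the TPM scale, on which every library has the same sum, those of MT-ND5 and MT-ND6 (adjusted p = 0.0588 and 0.0838). Because quantile normalization keeps only ranks, it cannot show a joint rise of the highest-ranked genes. Mitochondrial genes held 9 or 10 of the 10 highest values in each library. Whichever library was left out, 30 of the 33 held. The MT-ND3 call was lost without DMSO replicate 1 or 2 or ceritinib replicate 2 (adjusted p = 0.0604, 0.0702 and 0.0527), that of MT-ND5 without DMSO replicate 1 or 2 or ceritinib replicate 3 (0.0670, 0.0816 and 0.0845), and that of MT-ND6 without DMSO replicate 1 or ceritinib replicate 3 (0.0627 and 0.103).

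With crenolanib, mainly tRNAs and rRNAs were higher. It had 24 genes higher and 1 lower than DMSO, where 13% of all tested genes were called in each direction, and the median log2 change was 0.40 (-0.0036 over all tested genes). Of the 24 calls, 18 were tRNAs, 2 were rRNAs and 4 were mRNAs, MT-ND1, MT-ND2, MT-ND4 and MT-CYB. The lower gene was MT-CO1, and its call did not hold under all 5 scalings. Of the 24 higher calls 19 did, and those of MT-RNR2, MT-ND2 and MT-ND4 were lost under quantile normalization. The combination gave a mixed picture, with 9 genes higher and 17 lower, where 36.8% of all tested genes were called higher and 50.9% lower, or 87.7% in either direction, so neither count exceeded the share over all genes. The libraries did not overlap DMSO for 9 genes in the higher and 15 in the lower direction, against 36.8% and 50.8% of all tested genes. The median log2 change was -0.10 for the 37 genes and -0.16 over all tested genes. All 3 comparisons use the same 3 DMSO libraries.

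**Figure D2:**
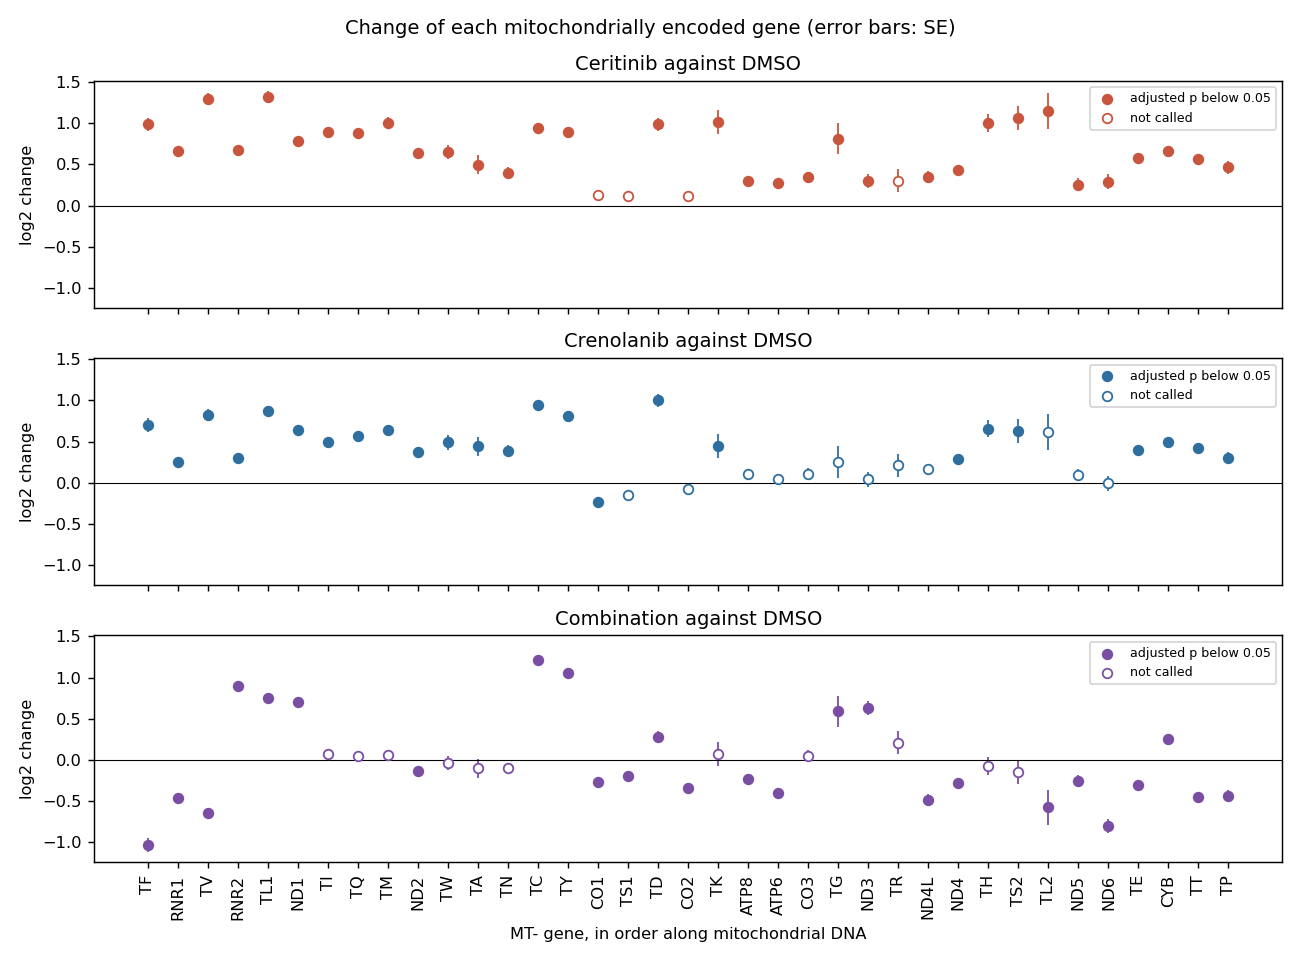
Log2 change on the log2(FPKM + 1) scale (y axis) of each mitochondrial gene in order along mitochondrial DNA (x axis, MT- left off), for ceritinib, crenolanib and the combination against DMSO; error bars are SE from limma, filled points have an adjusted p below 0.05. In the combination panel MT-RNR2, MT-TL1 and MT-ND1 stand above 0 (0.90, 0.75 and 0.70), next to MT-TF, MT-RNR1 and MT-TV below it (-1.04, -0.46 and -0.65).

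Both rRNAs were higher with each drug alone, and in the combination MT-RNR2 was higher and MT-RNR1 lower. MT-RNR1 encodes the RNA of the small ribosomal subunit and MT-RNR2 that of the large subunit, and the genes are neighbours on the same strand with only MT-TV between them. MT-RNR1 measured 482, 439 and 521 FPKM in DMSO, 719, 759 and 804 FPKM with ceritinib, 559, 554 and 601 FPKM with crenolanib, and 337, 364 and 343 FPKM in the combination. The single-drug libraries lay above all DMSO libraries and the combination libraries below them. The log2 changes were 0.66 ± 0.06 (SE) for ceritinib (adjusted p = 5.35e-06), 0.25 ± 0.06 for crenolanib (adjusted p = 0.00974) and -0.46 ± 0.06 for the combination (adjusted p = 9.81e-06).

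MT-RNR2 measured 2082, 2023 and 2248 FPKM in DMSO, 3193, 3461 and 3481 FPKM with ceritinib, 2667, 2563 and 2596 FPKM with crenolanib, and 3736, 4225 and 3882 FPKM in the combination. Here the combination libraries were the highest of the 4 groups. The log2 changes against DMSO were 0.67 ± 0.05 (adjusted p = 1.29e-06), 0.30 ± 0.05 (adjusted p = 0.00127) and 0.90 ± 0.05 (adjusted p = 3.07e-09). Both single-drug calls of MT-RNR2 were lost under quantile normalization, which cannot show a joint rise of the highest-ranked genes. The combination call of MT-RNR2 and all 3 calls of MT-RNR1 held under the 5 scalings. The ratio of MT-RNR2 to MT-RNR1 was 4.41 ± 0.169 in DMSO, 4.44 ± 0.114 with ceritinib, 4.57 ± 0.228 with crenolanib and 11.3 ± 0.258 in the combination. A ratio within a library does not change when the whole library is multiplied by 1 factor, though quantile normalization and the GC and length correction can change it. In the deposited values this one was at least 11.1 in every combination library and at most 4.77 elsewhere. The ratio was computed after the values had been seen and is given without a test. In DMSO the 2 rRNAs took 1.05% of the summed FPKM and the 13 mRNAs 22.3%. Since depletion of ribosomal RNA and selection of polyadenylated RNA are not stated, the rRNA values and their ratio may not reflect rRNA levels in the cells.

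**Figure D3:**
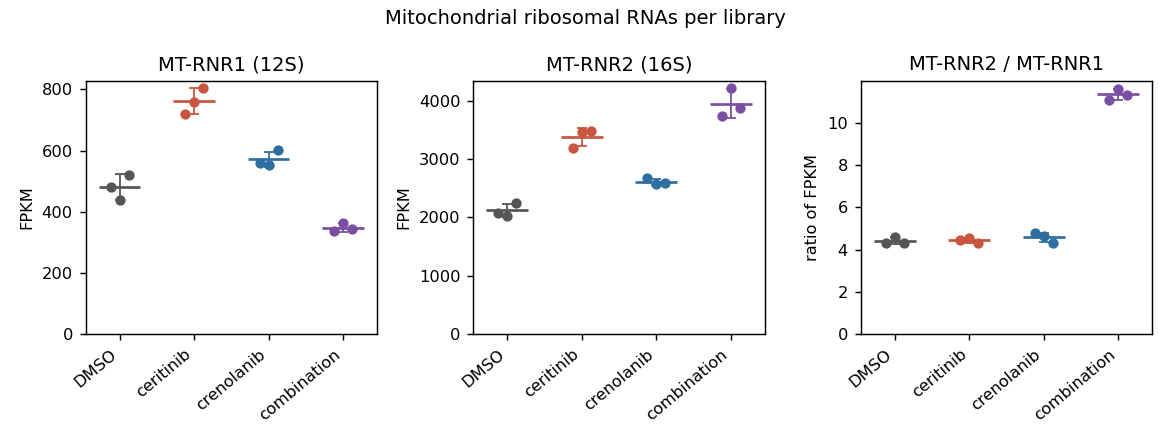
FPKM of MT-RNR1 and MT-RNR2 and their ratio (y axes from 0) in the 3 libraries of each group (x axis); points are libraries, horizontal lines means and error bars SD. The ratio lay between 4.31 and 4.77 in the 9 libraries of the other groups and between 11.1 and 11.6 in the combination.

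Complex I, the NADH dehydrogenase that feeds electrons into the chain, has 7 subunits encoded here. With ceritinib all 7 mRNAs rose, with crenolanib 3 of 7 rose, and in the combination 2 rose and 5 fell. Over all tested genes the shares were 20.3% higher with ceritinib, 13% higher with crenolanib, and 36.8% higher and 50.9% lower in the combination, so the combination counts are near those of genes in general. Of the 7 ceritinib calls, those of MT-ND1 and MT-ND2 held under all 5 scalings. MT-ND1, a membrane subunit beside the quinone-binding site, measured 2056, 1837 and 2113 FPKM in DMSO and 3342, 3495 and 3517 FPKM with ceritinib. It measured 3083, 3176 and 3054 FPKM with crenolanib and 3234, 3519 and 3036 FPKM in the combination. All 9 treated libraries thus exceeded all DMSO libraries. The log2 changes were 0.79 ± 0.06 (adjusted p = 7.99e-07), 0.63 ± 0.06 (adjusted p = 1.14e-05) and 0.70 ± 0.06 (adjusted p = 9.20e-08), and the combination rise did not depend on the scaling.

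MT-ND2, which lies just downstream of MT-ND1 with 3 tRNA genes between them, followed the single drugs but not the combination. It measured 3357, 3192 and 3356 FPKM in DMSO, 4924, 5277 and 5255 FPKM with ceritinib, 4251, 4379 and 4176 FPKM with crenolanib, and 2928, 3320 and 2822 FPKM in the combination. The rises of 0.64 ± 0.05 and 0.37 ± 0.05 with the single drugs (adjusted p = 2.38e-06 and 0.000390) were larger than the spread between replicates. In the combination the ranges overlapped, and the change of -0.13 ± 0.05 (adjusted p = 0.0344) lost its call without DMSO replicate 1 or 3 or combination replicate 1 or 3 (adjusted p = 0.0900 to 0.155) and turned positive under median-of-ratios scaling (0.15).

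MT-ND3, a small subunit of the same complex, rose in the combination, as did MT-TG just before it, while MT-ND4L after it fell. Of these combination calls, that of MT-ND3 held under all 5 scalings, and those of MT-TG and MT-ND4L did not. MT-ND3 measured 1087, 1052 and 1258 FPKM in DMSO, 1401, 1411 and 1355 FPKM with ceritinib, 1102, 1199 and 1182 FPKM with crenolanib, and 1603, 2053 and 1637 FPKM in the combination. The combination libraries were all above the rest. The change was 0.63 ± 0.09 (adjusted p = 1.55e-05) in the combination, 0.30 ± 0.09 (adjusted p = 0.0179) with ceritinib and 0.04 ± 0.09 (95% interval -0.15 to 0.23, adjusted p = 0.776) with crenolanib. MT-ND4L, the next mRNA gene downstream of MT-ND3, measured 3834, 3595 and 4279 FPKM in DMSO and 2646, 3096 and 2602 FPKM in the combination, a change of -0.49 ± 0.07 (adjusted p = 3.15e-05). With ceritinib the change of MT-ND4L was 0.35 ± 0.07 (adjusted p = 0.00263, but -0.13 under quantile normalization), and with crenolanib 0.16 ± 0.07 (adjusted p = 0.123).

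MT-ND4, which shares an mRNA with MT-ND4L, rose by 0.43 ± 0.06 with ceritinib (adjusted p = 0.000107) and 0.29 ± 0.06 with crenolanib (adjusted p = 0.00333) and fell by 0.28 in the combination (SE 0.06, adjusted p = 0.000508), from 4525 ± 288 to 3735 ± 316 FPKM. After median-of-ratios scaling that last change was 0.0064, so its direction was not stable. The ratio of MT-ND4L to MT-ND4 was 0.862 ± 0.0405 in DMSO and 0.744 ± 0.0153 in the combination. MT-ND5 was 548, 526 and 632 FPKM in DMSO and 465, 518 and 443 FPKM in the combination, a change of -0.26 ± 0.08 (adjusted p = 0.00675) that was 0.03 after the same scaling.

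MT-ND6 is the only mRNA gene on the minus strand. It measured 400, 535 and 513 FPKM in DMSO, 552, 569 and 636 FPKM with ceritinib, 472, 463 and 494 FPKM with crenolanib, and 260, 284 and 278 FPKM in the combination. DMSO replicate 1 was the low library of its group, and the combination libraries lay below all others. The change was -0.80 ± 0.09 in the combination (adjusted p = 2.50e-06), which held under all 5 scalings, 0.29 ± 0.09 with ceritinib (adjusted p = 0.0262) and -0.0067 ± 0.0904 with crenolanib (95% interval -0.20 to 0.19). As use of strand in counting is not known, fragments of MT-ND6 cannot be told apart from those of the plus strand.

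MT-CYB, cytochrome b and the only complex III subunit encoded here, rose in all 3 comparisons. It measured 1208, 1071 and 1144 FPKM in DMSO, 1840, 1831 and 1734 FPKM with ceritinib, 1598, 1647 and 1590 FPKM with crenolanib, and 1325, 1449 and 1311 FPKM in the combination. No treated library fell within the DMSO range. The log2 changes were 0.66 ± 0.05 (adjusted p = 7.99e-07), 0.50 ± 0.05 (adjusted p = 1.99e-05) and 0.26 ± 0.05 (adjusted p = 0.000248). The combination change became -0.43 under quantile normalization.

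Complex IV, cytochrome c oxidase, has 3 subunits encoded here, of which 1 mRNA rose with ceritinib, 1 fell with crenolanib and 2 fell in the combination. Over all tested genes 20.3% were called higher with ceritinib, 13% lower with crenolanib and 50.9% lower in the combination. The crenolanib call and both combination calls did not hold under all 5 scalings. MT-CO1, its catalytic subunit, measured 7370, 7072 and 7672 FPKM in DMSO, 7663, 8229 and 8364 FPKM with ceritinib, 6236, 6366 and 6126 FPKM with crenolanib, and 5988, 6578 and 5802 FPKM in the combination. Ceritinib libraries overlapped DMSO, whereas crenolanib and combination libraries were all lower. The changes were 0.13 ± 0.05 (adjusted p = 0.0518), -0.24 ± 0.05 (adjusted p = 0.00402) and -0.27 ± 0.05 (adjusted p = 0.000208). The ceritinib value passed the threshold in 4 fits that left out a library, DMSO replicate 3, ceritinib replicate 1 or combination replicate 2 or 3 (adjusted p = 0.0207 to 0.0420), and the combination value was 0.02 after median-of-ratios scaling.

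MT-CO2, which carries the copper centre that accepts electrons from cytochrome c, was 7780 ± 634 FPKM in DMSO, 8410 ± 39.0 FPKM with ceritinib, 7367 ± 329 FPKM with crenolanib and 6144 ± 537 FPKM in the combination. Its changes were 0.12 ± 0.07 (adjusted p = 0.191), -0.08 ± 0.07 (adjusted p = 0.428) and -0.34 ± 0.07 (adjusted p = 0.000322, a call that did not hold under all 5 scalings). MT-CO3 rose with ceritinib, from 7010 ± 627 to 8882 ± 396 FPKM (0.34 ± 0.07, adjusted p = 0.00220). Its combination libraries, at 7364, 7535 and 6785 FPKM, lay within the DMSO range of 6496 to 7709 FPKM, and the change was 0.05 ± 0.07 (95% interval -0.10 to 0.20).

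Complex V, ATP synthase, has MT-ATP6, part of the proton channel, and the small subunit MT-ATP8 here. MT-ATP6 measured 8480, 7976 and 8637 FPKM in DMSO, 9876, 10180 and 10222 FPKM with ceritinib, 8629, 8721 and 8560 FPKM with crenolanib, and 6123, 6947 and 5922 FPKM in the combination. It rose by 0.27 ± 0.05 with ceritinib (adjusted p = 0.00145), fell by 0.40 in the combination (SE 0.05, adjusted p = 7.53e-06) under every scaling tried, and changed by 0.05 ± 0.05 with crenolanib (95% interval -0.06 to 0.16). MT-ATP8 rose by 0.30 ± 0.06 with ceritinib (adjusted p = 0.00235). Its combination change of -0.23 ± 0.06 (adjusted p = 0.00312) turned to 0.46 after correction for GC content and length.

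The tRNAs showed the largest single-drug changes. With ceritinib 20 of 22 rose (median log2 change 0.89), with crenolanib 18 of 22 (median 0.53), and in the combination 5 rose and 7 fell (median -0.06). Both single-drug counts exceed the 20.3% and 13% of all tested genes called higher, and the combination counts do not exceed the 36.8% higher and 50.9% lower. The genes are 59 to 75 bases long, and a library of this kind does not tell a mature tRNA from the same bases within a longer precursor. Only 90 tested genes were 100 bases or shorter, and 68 of them were nuclear. Of those 68, 3 were higher and 6 lower with ceritinib, 2 higher and 3 lower with crenolanib, and 5 higher and 41 lower in the combination, where their median log2 change was -0.53.

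MT-TL1, the leucine tRNA gene that follows MT-RNR2 directly, measured 388, 343 and 398 FPKM in DMSO, 882, 961 and 979 FPKM with ceritinib, 707, 696 and 655 FPKM with crenolanib, and 630, 685 and 587 FPKM in the combination. All treated libraries were above DMSO and the ceritinib libraries above all others. The changes were 1.32 ± 0.07 (adjusted p = 2.75e-08), 0.87 ± 0.07 (adjusted p = 2.81e-06) and 0.75 ± 0.07 (adjusted p = 1.99e-07). MT-TV, between the rRNA genes, measured 122, 113 and 138 FPKM in DMSO, 298, 303 and 316 FPKM with ceritinib, 226, 215 and 222 FPKM with crenolanib, and 73.0, 87.8 and 75.9 FPKM in the combination. It rose by 1.29 ± 0.07 and 0.83 ± 0.07 with the single drugs (adjusted p = 7.77e-08 and 9.31e-06) and fell by 0.65 in the combination (SE 0.07, adjusted p = 2.14e-06), with every group separate from DMSO.

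MT-TF, the first gene of the rRNA end of the plus strand, measured 79.0, 83.6 and 95.5 FPKM in DMSO, 160, 167 and 186 FPKM with ceritinib, 137, 145 and 139 FPKM with crenolanib, and 46.8, 38.2 and 39.4 FPKM in the combination. It rose by 0.99 ± 0.08 and 0.70 ± 0.08 (adjusted p = 2.72e-06 and 9.59e-05), and fell by 1.04 in the combination (SE 0.08, adjusted p = 7.88e-08). The combination changes of MT-TF and MT-TV were 0.02 and 0.36 after correction for GC content and length, so their direction differs between the deposited and the corrected values.

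On the minus strand, MT-TC and MT-TY rose in every comparison with DMSO. MT-TC measured 115, 103 and 105 FPKM in DMSO, 210, 216 and 198 FPKM with ceritinib, 211, 205 and 209 FPKM with crenolanib, and 241, 263 and 249 FPKM in the combination. MT-TY measured 248, 231 and 258 FPKM in DMSO, 460, 468 and 442 FPKM with ceritinib, 436, 429 and 431 FPKM with crenolanib, and 488, 546 and 503 FPKM in the combination. For both genes the combination libraries were the highest. The combination changes were 1.21 ± 0.05 for MT-TC (adjusted p = 6.94e-11) and 1.06 ± 0.04 for MT-TY (adjusted p = 1.80e-10), and both held under all 5 scalings. Here too, fragments of the plus strand may be included, as use of strand in counting is not known.

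MT-TA and MT-TN, the alanine and asparagine tRNA genes next to MT-TC on the same strand, were not called in the combination. MT-TA ran from 14.1 to 18.1 FPKM in DMSO and from 11.8 to 17.2 FPKM in the combination, and MT-TN from 11.9 to 13.7 and from 11.1 to 13.3 FPKM. Their changes there were -0.10 ± 0.11 (95% interval -0.35 to 0.15) and -0.10 ± 0.07 (95% interval -0.24 to 0.05), but 0.82 and 0.93 after the GC and length correction (adjusted p = 3.39e-05 and 4.21e-08), so a contrast with MT-TC depends on that choice. With ceritinib they rose by 0.49 ± 0.11 and 0.40 ± 0.07 (adjusted p = 0.00507 and 0.000642).

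Of the other tRNAs, MT-TD (aspartate) rose in all 3 comparisons, from 38.6 ± 4.19 FPKM to 77.3 ± 3.38, 78.1 ± 7.16 and 46.9 ± 2.29 FPKM. Its combination call did not hold under all 5 scalings. MT-TI, MT-TQ and MT-TM, the isoleucine, glutamine and methionine genes between MT-ND1 and MT-ND2, rose by 0.88 to 1.01 with ceritinib and by 0.49 to 0.63 with crenolanib, and were not called in the combination (0.04 to 0.07, or 0.60 to 0.88 and called after that same correction). MT-TE, MT-TT and MT-TP, for glutamate, threonine and proline, rose by 0.46 to 0.58 and 0.30 to 0.42 with the single drugs and fell in the combination, with changes of -0.30, -0.45 and -0.44, which turned to 0.81, 0.69 and 0.63 after the GC and length correction. MT-TS1, a serine tRNA, measured 577 ± 46.9 FPKM in DMSO and was the only tRNA above 10 FPKM that neither drug alone moved past the threshold, at 0.11 ± 0.06 and -0.15 ± 0.06. It lies on the opposite strand just past the end of MT-CO1, and its ratio to MT-CO1 ranged only from 0.0733 to 0.0865. Use of strand in counting is not known, so its fragments cannot be told apart from those of the other strand.

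The lysine and tryptophan tRNAs MT-TK and MT-TW rose with ceritinib by 1.02 ± 0.15 and 0.65 ± 0.09 and with crenolanib by 0.45 ± 0.15 and 0.49 ± 0.09. The crenolanib call of MT-TK was lost without DMSO replicate 1 or 2, ceritinib replicate 1 or crenolanib replicate 1 or 2 (adjusted p = 0.0541 to 0.143), and that of MT-TA without DMSO replicate 1 (0.0582). MT-TH, MT-TS2, MT-TL2, MT-TG and MT-TR were at most 14.4 FPKM in every library. Of these, MT-TL2 (leucine) measured 1.01, 1.11 and 2.0 FPKM in DMSO and 0.499, 0.697 and 0.510 FPKM in the combination, below the 1 FPKM filter, and MT-TG (glycine) 1.71, 1.18 and 1.80 FPKM against 2.25, 3.74 and 2.66 FPKM. Their combination calls (adjusted p = 0.0246 and 0.0122) were lost without some libraries, for MT-TL2 without DMSO replicate 3 or combination replicate 1 or 3 (0.0600 to 0.115) and for MT-TG without DMSO replicate 2 or combination replicate 2 (0.0537 and 0.0601).

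Composition within the mRNAs shows the unequal changes without reference to nuclear genes. It is computed from the deposited FPKM, and quantile normalization and the GC and length correction can change it. With copies of mitochondrial sequence in the nuclear genome added to their mRNAs, 25 group shares moved by at least their SD and 27 by less. MT-ND1 made up 3.64% ± 0.0792 of the FPKM of the 13 mRNAs in DMSO, 5.02% ± 0.0537 with ceritinib, 5.28% ± 0.0296 with crenolanib and 6.68% ± 0.0858 in the combination. MT-ND3 made up 2.06% ± 0.0987, 2.02% ± 0.0731, 1.97% ± 0.0831 and 3.60% ± 0.252 in the same order. MT-CYB went from 2.08% ± 0.109 in DMSO to between 2.62% and 2.79% in the treated groups. Every treated library was above DMSO for MT-ND1 and MT-CYB, and for MT-ND3 only the combination libraries were.

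In the other direction, MT-CO1 made up 13.4% ± 0.266 of the mRNAs in DMSO, 11.8% ± 0.334 with ceritinib, 10.6% ± 0.0866 with crenolanib and 12.5% ± 0.159 in the combination. MT-CO2 went from 14.1% ± 0.341 to 12.2%, 12.5% and 12.6%, and its treated libraries were all below DMSO. MT-ATP6 (15.2% ± 0.323 to 12.96% ± 0.118), MT-ND4L (7.09% ± 0.235 to 5.69% ± 0.140) and MT-ND6 (0.881% ± 0.157 to 0.563% ± 0.0398) had lower shares in every combination library than in any DMSO library. The share of MT-CO3 was 12.7% ± 0.468 in DMSO and 14.8% ± 0.629 in the combination.

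**Figure D4:**
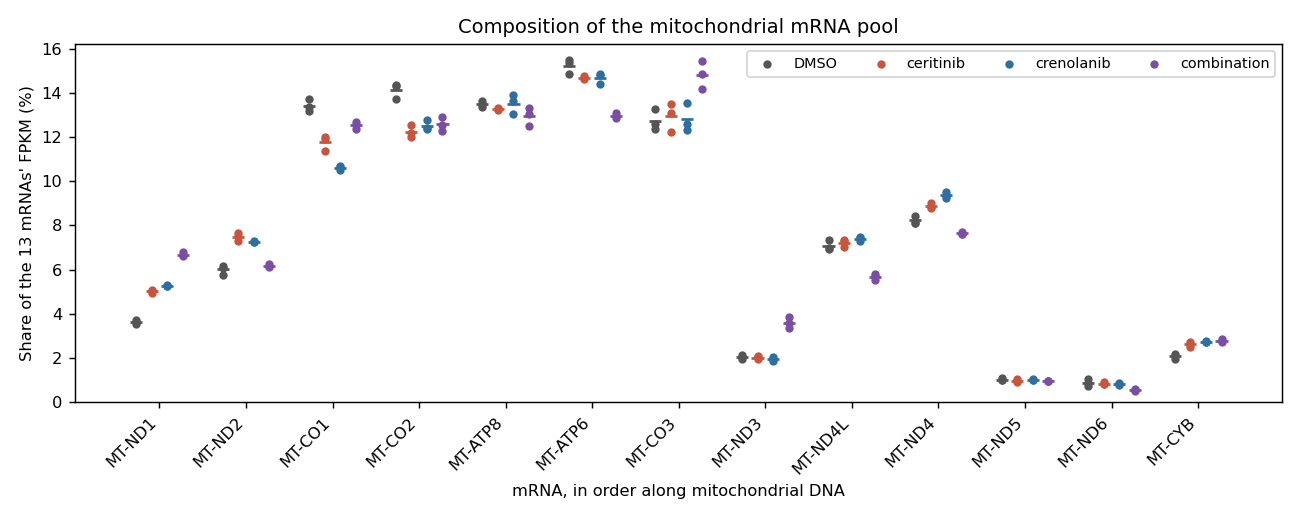
Share of each mRNA in the summed FPKM of the 13 mitochondrial mRNAs (percent, y axis from 0), in order along mitochondrial DNA (x axis); points are the 3 libraries of each group and short lines the group means. MT-ND1 is higher in all treated libraries (3.64% in DMSO, 6.68% in the combination) and MT-ND3 only in the combination (3.60% against 2.06%).

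The direct comparison of the drugs gave 24 genes higher with ceritinib than with crenolanib and 0 lower, where 19.4% of all tested genes were called higher and 15.4% lower (34.8% in either direction), with a median difference of 0.24 (0.018 over all tested genes). For 27 genes every ceritinib library exceeded every crenolanib library and for 0 the reverse held, against 27.1% and 21.3% of all tested genes. Both rRNAs, 9 mRNAs and 13 tRNAs were called. MT-RNR1 differed by 0.41 ± 0.06 (adjusted p = 0.000263), MT-CO1 by 0.37 ± 0.05 (adjusted p = 0.000127) and MT-TV by 0.47 ± 0.07 (adjusted p = 0.000408). MT-TC (-0.0034 ± 0.0464, 95% interval -0.10 to 0.10), MT-TY (0.08 ± 0.04) and MT-TD (-0.01 ± 0.08) were not called. The count came to 13 or 15 when crenolanib replicate 1 or 3 was dropped, to 14 when ceritinib replicate 3 was, and to 10 once GC content and length were corrected for. Across all fits 8 calls, MT-RNR1, MT-ND2, MT-TL1, MT-TV, MT-TI, MT-TQ, MT-TM and MT-TK, held.

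The combination was then set against the sum of both single-drug changes on the log2 scale, as the interaction of the 2 drugs. For 32 genes the combination was lower than that sum and for 1 it was higher, where 47.7% of all tested genes were called lower and 33.8% higher (81.5% in either direction). The median was -1.04, against -0.15 over all tested genes. After the GC and length correction 19 genes were lower and 6 higher, with a median of -0.34, and MT-TY, for example, turned from -0.65 to 0.62. The share of all tested genes called after that correction was not obtained. MT-TV (-2.77 ± 0.10, adjusted p = 1.63e-10) and MT-TF (-2.73 ± 0.12, adjusted p = 5.55e-10) lay furthest below, followed among the longer genes by MT-RNR1 (-1.38 ± 0.08, adjusted p = 1.29e-08), MT-ND2 (-1.14 ± 0.07, adjusted p = 2.13e-08) and MT-ND6 (-1.08 ± 0.13, adjusted p = 5.53e-06). For MT-RNR2 it was -0.08 ± 0.07 (95% interval -0.24 to 0.08), and 0.88 under quantile normalization. The higher gene was MT-ND3 (0.30 ± 0.12, adjusted p = 0.0399), whose call was lost in 7 of the 12 fits that left out a library, those without DMSO replicate 3, any ceritinib replicate, crenolanib replicate 1 or 3, or combination replicate 2 (adjusted p = 0.0527 to 0.101). Of the 32, 16 stayed lower and called under all 5 scalings.

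The combination counts moved with the scaling, and so did the median of all tested genes in that comparison. This median was -0.16 as deposited, -0.27 with every library scaled to the same sum (TPM scale) and -0.33 with the nuclear genes scaled to the same sum. Correction for GC content and length brought it to -0.01, quantile normalization to 0.01 and median-of-ratios scaling to 0.06. Relative to these shifts, the counts of higher and lower mitochondrial genes were 9 and 17 as deposited, 8 and 20 on the TPM scale, 6 and 25 on the nuclear scale, 9 and 18 with quantiles equalised, 18 and 7 by median-of-ratios scaling, and 26 and 5 on correcting for GC content and length. Shares of all tested genes called were obtained for the deposited values only. Counts under the other scalings, in any comparison, therefore cannot be set against such a share. Under all of them MT-RNR2, MT-ND1, MT-ND3, MT-TL1, MT-TC and MT-TY were called higher and MT-RNR1, MT-ND6 and MT-ATP6 lower. These 9 also kept their calls whichever library was left out. The part of the GC and length trend in the other 17 calls was not tested further.

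**Figure D5:**
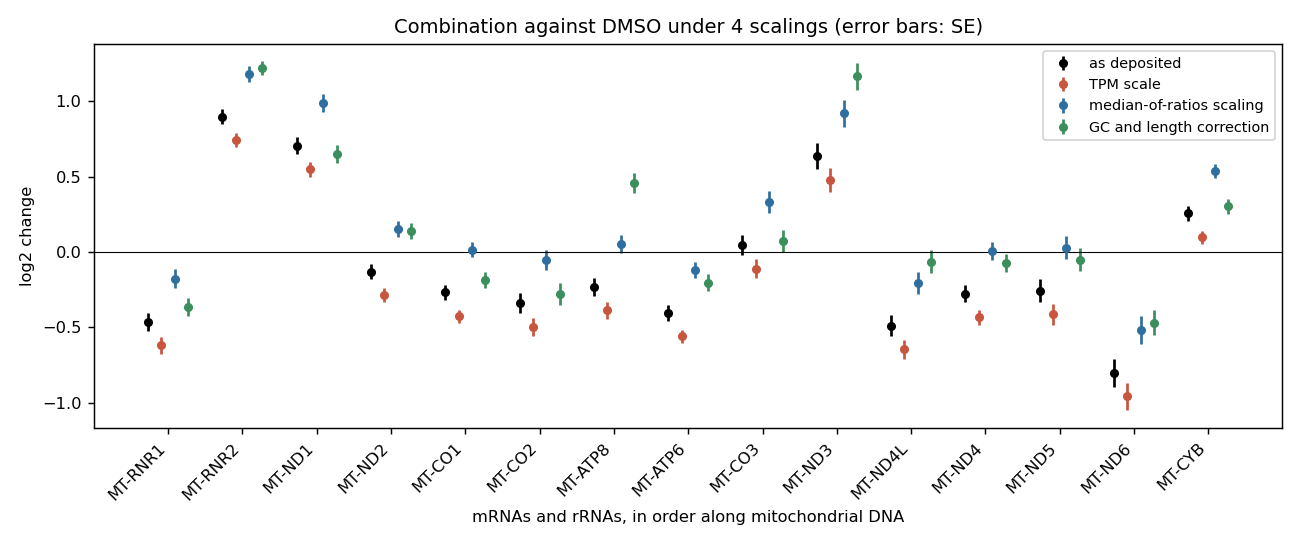
Log2 change of the combination against DMSO (y axis) for the 2 rRNAs and 13 mRNAs in order along mitochondrial DNA (x axis), with the values as deposited and under 3 other scalings; error bars are SE from limma. MT-RNR2, MT-ND1 and MT-ND3 stay above 0 and MT-RNR1, MT-ATP6 and MT-ND6 below it, while MT-ND2 and MT-ATP8 are among those that change sign.

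Nuclear genes that maintain and express mitochondrial DNA were examined as 5 lists, of which 91 genes were tested. With ceritinib 25 were higher and 5 lower (median log2 change 0.07), with crenolanib 9 and 10 (median -0.04), and in the combination 29 and 57 (median -0.35). Of all tested genes, 20.3% were called higher and 16.3% lower with ceritinib, and 13% in each direction with crenolanib. In the combination 36.8% of all tested genes were called higher and 50.9% lower. The lists were chosen with earlier results of these data known. On the TPM scale the ceritinib counts were 15 higher and 11 lower, and after the GC and length correction the combination counts were 24 and 44.

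Of the 13 genes for mitochondrial transcription and the nucleoid, 2 were higher and 1 lower with ceritinib, 2 and 1 with crenolanib, and 5 and 8 in the combination. Over all tested genes the shares were 20.3% and 16.3%, 13% and 13%, and 36.8% and 50.9% in the same order. POLRMT, the mitochondrial RNA polymerase, was 10.2 ± 0.415 FPKM in DMSO and was not called with either drug (0.08 ± 0.07 and -0.18 ± 0.07, the latter called at -0.21 after the GC and length correction). In the combination it was 15.3 FPKM (0.54 ± 0.07, adjusted p = 1.31e-05), a change that became -0.02 after the GC and length correction. TFAM, which packages the DNA and opens the promoters, was 19.03 ± 0.439 FPKM in DMSO and 8.90 ± 0.616 FPKM in the combination (-1.02 ± 0.05, adjusted p = 4.34e-10, and -0.12 after that correction). TFB2M, its partner at promoters, changed by -0.74 ± 0.05 in the combination (-0.34 after the correction). LONP1, a matrix protease, fell by 0.62 with ceritinib (SE 0.05, adjusted p = 1.34e-06) and by 0.30 with crenolanib (adjusted p = 0.000790), from 31.0 ± 0.949 FPKM to 19.9 ± 1.46 and 25.0 ± 0.562 FPKM, and rose in the combination to 48.9 ± 1.99 FPKM (0.64 ± 0.05, adjusted p = 3.84e-08). That combination rise is from the deposited values, and no value after the GC and length correction was obtained for it.

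Among 31 genes for RNA processing, modification, stability and decay, 11 were higher and 0 lower with ceritinib, 4 and 2 with crenolanib, and 9 and 20 in the combination. The shares over all tested genes were 20.3% and 16.3%, 13% and 13%, and 36.8% and 50.9% in that order. LRPPRC, which stabilises mitochondrial mRNAs, was 27.96 ± 0.324 FPKM in DMSO, 38.4 ± 1.25 FPKM with ceritinib (0.44 ± 0.05, adjusted p = 1.42e-05), 29.8 ± 1.16 FPKM with crenolanib (0.09 ± 0.05) and 8.25 ± 0.595 FPKM in the combination (-1.65 ± 0.05, adjusted p = 3.94e-12, and -0.83 after the GC and length correction). PNPT1, an RNA-degrading enzyme, changed by 0.27 ± 0.03 with ceritinib and -1.54 ± 0.03 in the combination (-0.79 after the correction). TRMT10C, a subunit of the nuclease that cuts tRNA 5′ ends, was 22.3 ± 0.323 FPKM in DMSO and 8.03 ± 0.258 FPKM in the combination (-1.37 ± 0.04, and -0.87 after the correction). Among the 9 genes of this list that rose in the combination was HSD17B10, from 30.4 ± 1.21 to 57.4 ± 2.27 FPKM in the deposited values (0.90 ± 0.05, adjusted p = 4.50e-09). ELAC2, which cuts the 3′ ends, rose by 0.16 ± 0.02 with ceritinib (adjusted p = 0.000345). It rose by 0.08 ± 0.02 with crenolanib (adjusted p = 0.0300), a call lost on the TPM scale. In the combination it went from 23.3 ± 0.154 to 33.0 ± 0.211 FPKM in the deposited values (0.48 ± 0.02, adjusted p = 9.05e-10). MRM1, a methyltransferase for MT-RNR2, rose by 0.50 ± 0.07 with ceritinib and 0.24 ± 0.07 with crenolanib.

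For the 17 tested genes of DNA replication and maintenance the counts were 6 higher and 3 lower with ceritinib, 2 and 2 with crenolanib, and 6 and 10 in the combination. For this list and the next 2, the shares over all tested genes were 20.3% and 16.3%, 13% and 13%, and 36.8% and 50.9%. The helicase TWNK rose by 0.19 ± 0.03 and 0.12 ± 0.03 with the single drugs (the crenolanib call was lost on the TPM scale), and the polymerase POLG rose by 0.48 ± 0.03 in the combination (0.21 after the GC and length correction). Among 14 regulators of mitochondrial biogenesis 3 were higher and 1 lower with ceritinib, 1 and 0 with crenolanib, and 4 and 10 in the combination. MYC rose from 5.74 ± 0.0223 to 10.5 ± 0.619 FPKM with ceritinib (0.77 ± 0.04, adjusted p = 7.59e-08), and NRF1, an activator of nuclear genes for mitochondria, fell by 0.22 (SE 0.04, adjusted p = 0.00223). PPARGC1A, a coactivator of such genes, had group means of at most 0.0778 FPKM and was not tested. Among 16 translation factors 3 were higher and 0 lower with ceritinib, 0 and 5 with crenolanib, and 5 and 9 in the combination. MTIF2, the initiation factor, was at -0.22 ± 0.04 with crenolanib and -1.64 ± 0.04 in the combination, both in the deposited values.

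Copies of mitochondrial sequence in the nuclear genome can take up fragments of the genes described here. The tables held 405 such symbols, of which 6 reached 1 FPKM in some library, and their FPKM summed to 2.08% of that of the mitochondrial genes. The 3 above 10 FPKM on average lie side by side on chromosome 1. MTATP6P1 measured 751 ± 46.8 FPKM in DMSO and 533 ± 67.7 FPKM in the combination, MTND2P28 290 ± 8.64 and 254 ± 11.6 FPKM, and MTCO1P12 283 ± 9.33 and 230 ± 22.8 FPKM. The ratio of each mitochondrial gene to its copy varied little between groups, from 11.1 to 11.9 for MT-ATP6, 11.4 to 12.2 for MT-ND2 and 26.0 to 26.97 for MT-CO1. Whether these fragments came from the nuclear copy or from the mitochondrial RNA cannot be told from FPKM, and adding the copies raised the mitochondrial share in ceritinib from 29.3% to 30.0%.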

How the data were processed

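RNA sequencing of 12 libraries (4 groups of 3 replicates) was used. The deposited values are FPKM per gene symbol, 1 table per library; the tables have no header, so the unit was read from the values. Per the submitters' processing notes the authors used FastQC 0.11.2, STAR, StringTie and build hg38; no other version, annotation, filter or use of strand in counting was given in the sources used, so overlapping and antisense mitochondrial genes cannot be told apart. Depth is not in the tables. Of low values of FPKM times transcript length, 19.1% to 25.8% per library were within 0.1 of a whole multiple of the commonest one, where chance gives 20%. With that value divided into 150 parts, 33.9% to 37.7% were within 0.02 of a whole number of parts in 10 libraries and 2.92% and 3.69% in ceritinib replicates 1 and 2, where chance gives 4%. These steps are not whole fragments and do not hold in all libraries, so depth was not recovered and no counting intervals are given.

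The R 4.3.3 package limma 3.58.1 was fitted to log2(FPKM + 1) (trend on, 11944 genes reaching 1 FPKM in 3 or more libraries, all 12 libraries in 1 fit with 8 residual degrees of freedom, Benjamini-Hochberg adjustment over all tested genes, threshold 0.05). The labels call the replicates biological without saying how cultures were separated, so p-values measure the spread between these samples. The same code was tested on simulated data. The interaction is the combination minus both single drugs plus DMSO. Coordinates, lengths, GC content and sequences came from GENCODE 29, which matched 54611 of 56140 symbols. The 1 entry with no gene name was left out. Alternatives were pseudocount 0.1, no filter, 5 scalings (one of them a correction by splines of GC content and length, over 98.5% of tested genes), robust variance estimation, only the groups compared, the replicate number as a block, and leaving out each library. All mRNAs and rRNAs were to be named, tRNAs called in a comparison or averaging 10 FPKM, and up to 4 genes per machinery list and comparison with the smallest adjusted p, plus POLRMT, TFAM, TFB2M, LRPPRC and PPARGC1A, a few of which are left to the counts. The genes and lists were chosen with earlier results of these data known.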

Additional observations from a re-analysis of the deposited data

How the results depend on the processing

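The numbers 1 to 3 shared by the groups did not pair the samples: over 18 same-numbered pairs the deviations from the group means correlated with a median r of -0.00115, 1 pair was over 0.1, and 4 of 12 libraries correlated best with their own number. With the replicate number as a block, the counts of higher and lower mitochondrial genes were 33 and 0 (ceritinib), 24 and 1 (crenolanib), 9 and 17 (combination), 22 and 0 (ceritinib against crenolanib) and 1 and 31 (interaction).

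With ceritinib, 1 gene was lower under quantile normalization (against 0), where MT-CO2 was -0.10 and MT-ND4L -0.13. With crenolanib the count of lower genes was 0 without a filter and under quantile normalization, and 2 on the TPM scale and with GC content and length corrected for. In the combination, higher genes numbered 18 with median-of-ratios scaling and 26 after the GC and length correction, and lower genes 7 and 5. For ceritinib against crenolanib the count was 11 without a filter, 12 with median-of-ratios scaling and 10 after the GC and length correction, and MT-CO2 was -0.013 under quantile normalization. For the interaction, higher genes numbered 0 without a filter, on the TPM and nuclear scales and with robust variance estimation, 2 with median-of-ratios scaling and quantile normalization, and 6 on correcting for GC content and length, where lower genes numbered 19.

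Leaving out each library gave 30 to 35 higher genes for ceritinib, 22 to 26 for crenolanib, with 1 to 2 lower (2 without DMSO replicate 1), 8 to 10 and 15 to 17 for the combination, 13 to 27 for ceritinib against crenolanib, and 0 to 1 higher and 31 to 34 lower for the interaction.

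Combination log2 changes that turned sign with a call on either side were as follows. Median-of-ratios scaling gave MT-ND2 0.15, MT-TW 0.23, MT-TN 0.17, MT-CO1 0.016, MT-TS1 0.093, MT-ATP8 0.054, MT-ND4 0.0064 and MT-ND5 0.028. The GC and length correction gave MT-TF 0.015, MT-TV 0.36, MT-ND2 0.14, MT-TW 1.07, MT-TA 0.82, MT-TN 0.93, MT-TS1 0.34, MT-ATP8 0.46, MT-TH 1.04, MT-TS2 0.68, MT-TL2 0.51, MT-TE 0.81, MT-TT 0.69, MT-TP 0.63 and POLRMT -0.025. The nuclear scale gave MT-TI -0.15, MT-TQ -0.18, MT-TM -0.16 and MT-CO3 -0.18, the TPM scale MT-TQ -0.11, and quantile normalization MT-TI -0.23, MT-TQ -0.24, MT-TM -0.19, MT-ATP8 0.0080 and MT-CYB -0.43. For the interaction, median-of-ratios scaling gave MT-RNR2 0.19 and MT-CO1 0.11, quantile normalization MT-RNR2 0.88, MT-CO1 0.14, MT-CO2 0.086 and MT-CO3 0.061, and the GC and length correction MT-RNR2 0.21, MT-TW 0.18, MT-TA 0.14, MT-TN 0.38, MT-TC 0.40, MT-TY 0.62, MT-TS1 0.65, MT-ATP8 0.13, MT-TE 0.079 and MT-TP 0.12. The cause was not tested. Signs that changed with no call on either side are not counted.

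The share of library FPKM was 22.3%, 26.4%, 23.5% and 17.7% for mRNAs alone (DMSO, ceritinib, crenolanib, combination), and 30.0% and 26.4% for ceritinib and crenolanib with nuclear copies added. Of the nuclear machinery genes, 15 were higher and 11 lower with ceritinib on the TPM scale and 3 were lower without a filter; for crenolanib 6 were lower with median-of-ratios scaling. Leaving out libraries gave 3 to 6 lower for ceritinib and 4 to 9 higher for crenolanib. The leave-one-out, scaling, block and robust fits of the machinery lists were added after the data had been seen. Depth is unknown, which limits what can be said of tRNAs near 1 FPKM.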

Other observations

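Ratios of neighbouring genes within a library do not change when the library is multiplied by 1 factor, but quantile normalization and the GC and length correction can change them. The values below are from the deposited FPKM. The pairs below were picked after the values had been seen, so they are values without a test. The ratio of MT-ND1 to MT-ND2 was 0.606 ± 0.0276 in DMSO, 0.670 ± 0.00825 with ceritinib, 0.727 ± 0.00360 with crenolanib and 1.08 ± 0.0228 in the combination (SD, n = 3). That of MT-ND3 to MT-ND4L was 0.290 ± 0.00563, 0.280 ± 0.0154, 0.267 ± 0.0142 and 0.633 ± 0.0288 in the same order. In both pairs the 3 combination libraries lay above all 9 others.

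Other pairs kept their ratio in some groups. MT-TL1 to MT-ND1, adjacent genes on the plus strand, was 0.188 ± 0.000973 in DMSO and 0.194 ± 0.000750 in the combination, but 0.273 ± 0.00756 with ceritinib and 0.221 ± 0.00761 with crenolanib. MT-TS1 lies on the opposite strand just past the end of MT-CO1, and the ratio of MT-TS1 to MT-CO1 ranged only from 0.0733 to 0.0865 over the 12 libraries. On the minus strand, MT-TY to MT-TA was 15.4 ± 1.95 in DMSO, 19.8 ± 1.22 with ceritinib, 19.5 ± 0.720 with crenolanib and 34.7 ± 6.78 in the combination, and MT-TC to MT-TN was 8.43 ± 1.12, 12.1 ± 0.997, 12.2 ± 0.577 and 21.1 ± 2.58.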
